A study of Homo sapiens with 3 samples.

Results

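The nuclear genes of the respiratory chain were examined in 3 single-cell RNA-seq libraries of OVCAR3, a human line established from high-grade serous ovarian cancer. Members were all genes whose symbol carries the stem of a structural subunit: NDUFA, NDUFB, NDUFC, NDUFS or NDUFV with a number for complex I, SDHA to SDHD for complex II, UQCR and CYC1 for complex III, COX5 to COX8 for complex IV and ATP5F, ATP5M or ATP5P for complex V. In complexes I and IV, symbols with a further ending, such as NDUFA4L2 and COX7A2L, were not taken, and neither was COX4I1 of complex IV. This gave 83 of the 36601 genes counted, 37 of complex I, 4 of complex II, 10 of complex III, 14 of complex IV and 18 of complex V. The cultures, all of the same line, were treated for 48 h with the vehicle DMSO, with 50 μM of the RAC1 inhibitor NSC23766 (RAC1i), or with RAC1i and 5 μM of the EZH2 inhibitor GSK126 (Combo). All of them contained DMSO, in which both drugs were dissolved. RAC1 is a small GTPase of the cytoskeleton and EZH2 a histone methyltransferase. The culture with the EZH2 inhibitor alone was not analysed here.

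The respiratory chain sits in the inner mitochondrial membrane. Complexes I and II take electrons from NADH and succinate, complex III passes them to cytochrome c, complex IV passes them on to oxygen, and complex V (ATP synthase) uses the proton gradient to make ATP. Most subunits are encoded in the nucleus and the rest in mitochondrial DNA, which supplies subunits to every complex but II. Within a complex, a few core subunits carry the cofactors or the catalytic sites, and many small accessory subunits hold the assembly together.

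Each condition was 1 library, so there was no replicate and no test between conditions, and differences between libraries may be those of single cultures. Expression is given as unique molecular identifiers (UMIs, each marking a captured mRNA molecule) of a gene per 1000000 UMIs of the kept cells (CPM). Ratios are log2 ratios of CPM with 95% intervals that cover counting error only. After filters on cell quality, 7531 DMSO cells, 10215 RAC1i cells and 8239 Combo cells remained, and the median cell held 26750, 20989 and 24953 UMIs. Between 15 and 23 cell barcodes were shared by any pair of libraries. A gene counted as higher or lower when its CPM differed by at least 1.5-fold, and only genes that reached 10 CPM in the higher of the compared libraries were tested. On this scale the median log2 ratio of all genes was −0.20 for RAC1i over DMSO and −0.18 for Combo over DMSO, and it moved to −0.11 and −0.08 with TMM scaling, to −0.07 and −0.04 with size factors and to −0.28 and −0.26 with a total free of mitochondrial genes. Of the 7 markers of this line, PAX8, WT1, MUC16, EPCAM, KRT8, KRT18 and MSLN, all were detected, with a sum of 2385 CPM in DMSO, against 1444 in RAC1i and 1526 in Combo. The leukocyte gene PTPRC, the endothelial gene PECAM1 and the fibroblast genes COL1A1 and COL3A1 stayed under 10 CPM in all 3 libraries.

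The genes of the respiratory chain went both ways after RAC1i, in part along their roles. Of the 27 members of complex II or with a core, catalytic, F1, c ring or stalk role, 13 were lower by at least 1.5-fold and 1 was higher. Of the 51 other members that were tested, 5 were lower and 11 higher, and 34 were above 0. Of all genes tested, 36.9% were lower by 1.5-fold, 22.7% higher and 57.6% below 0. The rises among the other members were thus near the share of all genes. As a sum the members took 3.27% of all UMIs in DMSO, 3.55% in the RAC1i library and 3.80% in Combo. NDUFC2, an accessory subunit of complex I, held 12.1% to 13.6% of these UMIs in each library. Of the 83 members, 78 passed the 10 CPM limit in each of the comparisons. RAC1i was higher than DMSO for 12 of them, where 22.7% of all genes tested were higher, and lower for 18, where 36.9% of all genes were lower. In Combo, 13 were higher than in DMSO (21.3% of all genes) and 15 lower (35.4%). The members' median log2 ratio was 0.05 for RAC1i and 0.19 for Combo, 0.25 and 0.37 above that of all genes, with a spread from −2.01 to 0.95 for RAC1i. These gaps were smaller against genes of higher level. With a minimum of 50 CPM the medians were 0.05 and 0.17 for 77 members and −0.0046 and 0.01 for all genes. For RAC1i, 11 members were then higher and 18 lower, and of all 3503 genes tested 966 were higher and 1000 lower. The split of Combo calls depended on the scaling. Under size factors 18 members were higher and 12 lower, and of all 8674 genes tested 2204 were higher and 2682 lower. With every cell weighted alike, as the mean over cells of CPM, 5 members were higher and 22 lower for RAC1i. Of all 8757 genes tested, 2160 were then higher and 3103 lower. For Combo 7 members were higher and 19 lower, where 2062 of 8762 genes were higher and 2980 lower. The members' medians were then −0.14 and −0.0593, against −0.17 and −0.15 for all genes. All 30 calls for RAC1i kept their direction in the 14 other settings tried. The pseudocount and the CPM minimums cannot turn a direction, and the other scalings shifted all genes alike by less than 1.5-fold. Only the settings that changed the cells or their weights could have turned a call. Of the 18 lower members, 16 stayed past 1.5-fold in every setting that tested them (ATP5PD and NDUFA2 did not), and of the 12 higher members 5 did, NDUFC1, NDUFS4, COX6A1, UQCR10 and UQCRHL. UQCRHL passed the limit only through the treated libraries and was not tested with a minimum of 50 CPM.

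**Figure D1:**
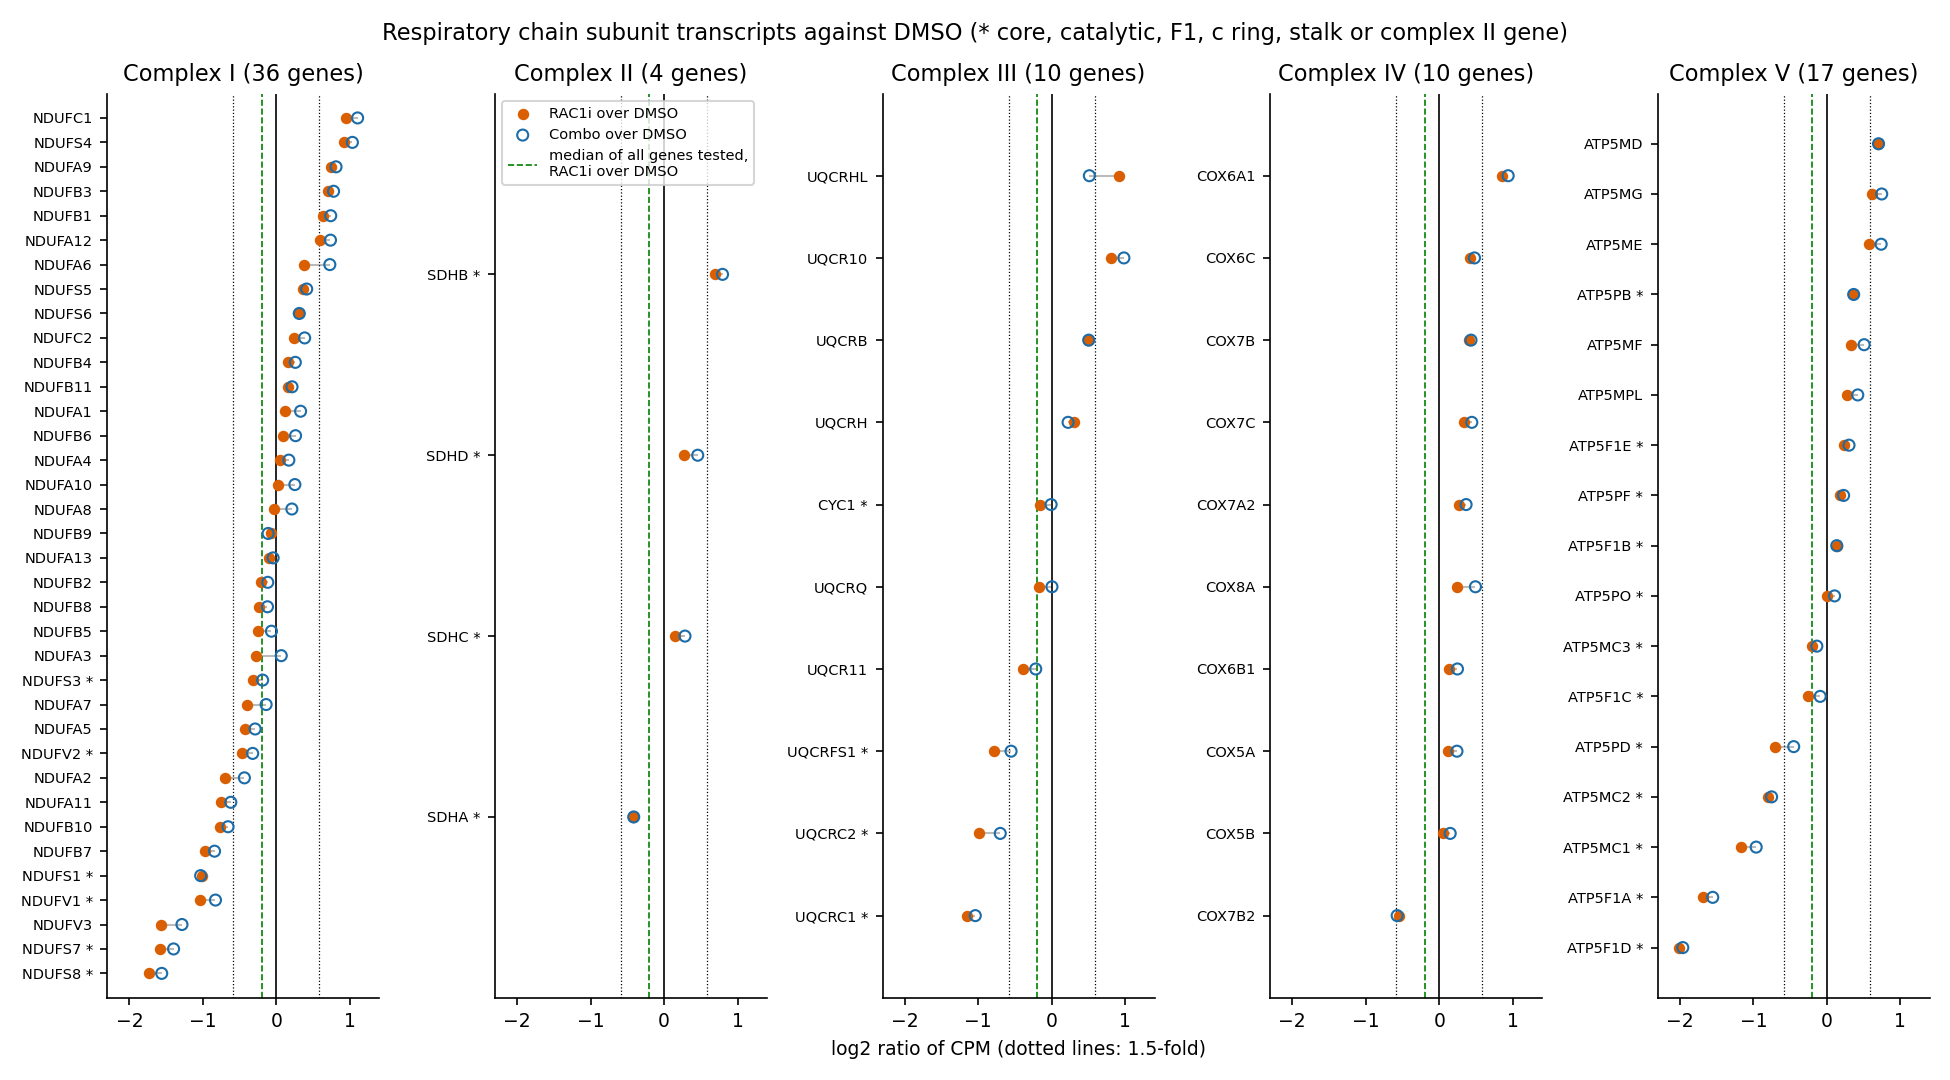
Log2 ratio of CPM against DMSO (horizontal axis) for 77 of the members that passed the limit, by complex, with RAC1i as filled and Combo as open circles and dotted lines at 1.5-fold. Genes of core, catalytic, F1, c ring, stalk or complex II roles carry an asterisk, and they crowd the lower end in complexes I, III and V, down to −2.01 for ATP5F1D, whereas complex IV has only COX7B2 to the left of 0.

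Complex I takes electrons from NADH and is the largest of the 5 complexes. Its core subunits bind the flavin, the iron-sulfur clusters and ubiquinone. For the 6 nuclear core genes described here, the treated libraries were both lower than DMSO, where 57.6% of all genes were lower in RAC1i and 57.2% in Combo. Their sum was 1235 CPM in DMSO, 696 in RAC1i and 771 in Combo. NDUFS8, an iron-sulfur subunit (chr11:68030617-68036644), stood at 278 CPM in DMSO, 83.6 in RAC1i and 94.4 in Combo, a log2 ratio of −1.74 (−1.76 to −1.71) for RAC1i. This gene was thus 3.33-fold lower in RAC1i. NDUFS7, which carries the last iron-sulfur cluster before ubiquinone (chr19:1383527-1395589), stood at 92.4, 30.8 and 35.0 CPM, a log2 ratio of −1.59. NDUFV1, which binds NADH and the flavin, was measured at 165, 80.3 and 92.7 CPM, a log2 ratio of −1.04. NDUFS1, the largest iron-sulfur subunit, gave 71.2, 35.3 and 34.9 CPM, a log2 ratio of −1.01. For these genes both treated libraries lay far below DMSO and close to each other. The other two stayed within 1.5-fold. NDUFV2 gave 473, 341 and 378 CPM and NDUFS3 gave 155, 125 and 136 CPM, with log2 ratios of −0.47 and −0.32 for RAC1i.

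Against all genes, the core of complex I stood low. The median log2 ratio of the 6 genes was −1.03 for RAC1i and −0.93 for Combo, which is −0.82 and −0.75 relative to the medians of all genes. For RAC1i, 4 of 6 were lower by at least 1.5-fold, against 36.9% of all genes. All 6 stayed below 0 against DMSO in each of the 14 alternative settings tried, for RAC1i and for Combo, including cells of 10000 to 30000 UMIs (median −1.10 and −1.09), cells with 1% to 4% mitochondrial UMIs (median −0.95 and −0.87) and cells without a proliferation UMI (median −1.26 for RAC1i).

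**Figure D2:**
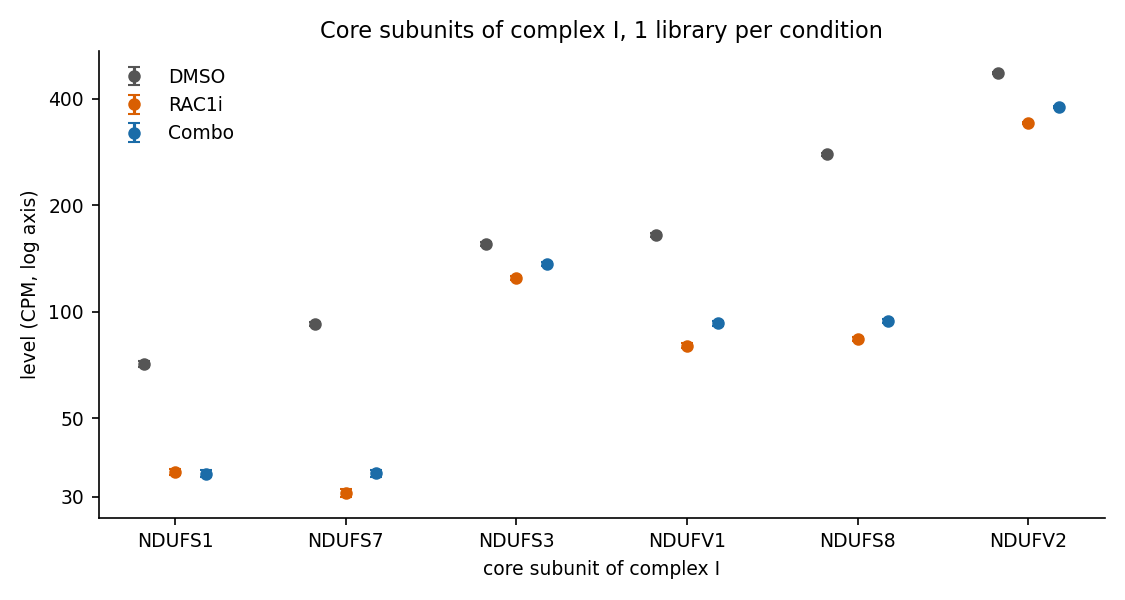
Level of 6 nuclear core subunits of complex I in CPM (log axis) in each library, with 95% counting intervals as bars that are mostly smaller than the points. DMSO is highest for every gene, and RAC1i and Combo lie close together, from 30.8 CPM for NDUFS7 to 378 CPM for NDUFV2.

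The 30 accessory members of complex I, which include NDUFA4 by its symbol although its product is now placed in complex IV, went both ways. Their median log2 ratio was 0.04 for RAC1i and 0.21 for Combo, with 6 higher and 5 lower for RAC1i, where 22.7% of all genes were higher and 36.9% lower. The first of these medians turned to −0.026 with a total free of mitochondrial genes and to −0.14 as a mean over cells. NDUFC1, of the membrane arm, rose from 159 CPM in DMSO to 308 in RAC1i and 343 in Combo, a log2 ratio of 0.95 (0.93 to 0.97) for RAC1i. NDUFS4, needed for a stable NADH-binding module (chr5:53560633-53683338), stood at 60.4, 114 and 124 CPM, a log2 ratio of 0.92. NDUFA9, which lies at the joint of the arms, stood at 65.7, 110 and 115 CPM, a log2 ratio of 0.74. NDUFB3, NDUFB1 and NDUFA12 made up the rest of the higher members, at log2 ratios of 0.71, 0.63 and 0.59. The rises were thus accessory subunits of several modules. The 5 lower members were NDUFV3, which is attached to the NADH-binding module, and NDUFB7, NDUFB10, NDUFA11 and NDUFA2. NDUFV3 had the lowest ratio of them, with 143, 48.1 and 58.7 CPM and a log2 ratio of −1.57. The sum over complex I does not show this split, at 13831 CPM with DMSO, 13917 with RAC1i and 15157 with Combo. NDUFC2 gave 3954, 4676 and 5159 CPM of it.

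Complex II, succinate dehydrogenase, also serves the citric acid cycle and has no subunit of mitochondrial DNA. Its sum was 330 CPM in DMSO, 391 in RAC1i and 425 in Combo. SDHA, which holds the flavin and oxidizes succinate, stood at 56.3, 42.0 and 42.3 CPM, a log2 ratio of −0.42 for RAC1i. SDHB, the iron-sulfur subunit, stood at 79.5, 128 and 138 CPM, a log2 ratio of 0.69, the only member of the complex past 1.5-fold, and of 0.36 as a mean over cells. The membrane anchors SDHC and SDHD were measured at 140, 155 and 170 CPM and at 54.3, 65.6 and 74.6 CPM. In both treated libraries the iron-sulfur subunit was thus higher, and the ratio of the subunit with the flavin was below 0 but within 1.5-fold. The assembled complex holds them in equal number.

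In complex III, 4 large subunits were below DMSO, where 57.6% of all genes were below 0 for RAC1i, and 3 of them were lower by 1.5-fold, where 36.9% of all genes were. UQCRC1, of the matrix-facing core, stood at 331 CPM in DMSO, 149 in RAC1i and 161 in Combo, a log2 ratio of −1.15. Its partner UQCRC2 stood at 71.0, 35.9 and 43.7 CPM, a log2 ratio of −0.98. UQCRFS1, the Rieske iron-sulfur protein, stood at 102, 59.5 and 69.8 CPM, a log2 ratio of −0.78. CYC1, cytochrome c1, differed little, at 224, 200 and 223 CPM, and its log2 ratio of −0.16 lay above the median of all genes. In Combo its ratio of −0.01 changed sign with TMM and size factors. The median of the 4 genes was −0.88 for RAC1i and −0.63 for Combo.

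The 6 small subunits of complex III had a median log2 ratio of 0.39, with 4 above 0, where 57.6% of all genes were below 0. UQCR11 and UQCRQ lay below 0, at −0.39 and −0.17. The median and the 4 include UQCRHL, which passed the limit only through the treated libraries, so that its sign was fixed in advance. UQCR10 stood at 397, 697 and 784 CPM, a log2 ratio of 0.81 for RAC1i. UQCRB, which lies near a ubiquinone site, stood at 551, 773 and 782 CPM, a log2 ratio of 0.49. UQCRHL, an intronless copy of UQCRH, gave 7.61, 14.3 and 10.9 CPM, a log2 ratio of 0.91 (0.82 to 1.00). It held under 1% of the UMIs of the pair in each library, its reads can be confused with those of UQCRH, and its ratio is uncertain for that reason. UQCRH itself gave 1171, 1439 and 1367 CPM.

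Complex IV, cytochrome c oxidase, keeps its catalytic center on subunits of mitochondrial DNA, so all its nuclear members here are supporting subunits. Of the 14 members, 10 passed the limit, and 9 of these were above 0 for RAC1i and for Combo, where 57.6% and 57.2% of all genes were below 0. The sum rose from 6082 CPM in DMSO to 7764 in RAC1i and 8324 in Combo, ratios of 1.28 and 1.37. COX6A1, the broadly expressed form of subunit VIa, stood at 872, 1582 and 1670 CPM, a log2 ratio of 0.86 (0.85 to 0.87) for RAC1i, and was the only one of the 10 past 1.5-fold, where 22.7% of all genes were higher. COX6C and COX7B had log2 ratios of 0.41 and 0.40. COX5A and COX5B, which face the matrix, had 0.12 and 0.05. The median was 0.26 for RAC1i and 0.40 for Combo, 0.46 and 0.58 above the medians of all genes. For RAC1i it was 0.37 under size factors, 0.19 with a total free of mitochondrial genes, 0.11 as a mean over cells, with 7 of 10 above 0, and 0.11 in cells with 1% to 4% mitochondrial UMIs, with 6 of 10 above 0.

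The isoforms of complex IV differed from their partners. COX7B2, a form known from testis, was the only tested member of the complex with a ratio below 0 for RAC1i, at 124, 84.8 and 83.3 CPM, a log2 ratio of −0.55 that lies within 1.5-fold. It gave 15.5% (15.3 to 15.7) of the UMIs of COX7B and COX7B2 in DMSO, 8.68% (8.56 to 8.79) in RAC1i and 8.38% (8.26 to 8.50) in Combo. Another testis form, COX8C, had 25 UMIs in the whole DMSO library, 415 in RAC1i and 460 in Combo, which is 0.126, 1.77 and 2.16 CPM and at most 0.243% of the UMIs of COX8A and COX8C. Of the forms of heart and skeletal muscle, COX6A2 had no UMI in any library, which at a floor of 3 UMIs allows a share of up to 0.00173% of the COX6A pair in DMSO, and COX7A1 had 1, 17 and 13 UMIs. COX6B2, known from testis, stayed between 0.487 and 0.741 CPM. OVCAR3 cells thus held mostly the broadly expressed forms in all 3 conditions, with COX7B2 as a sizeable second form.

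The members of complex V spread widely. The F1 head, which makes ATP, has 5 subunits, and their ratios went apart. ATP5F1D, the delta subunit of the central stalk (chr19:1241746-1244825), stood at 343 CPM in DMSO, 84.9 in RAC1i and 88.1 in Combo, a log2 ratio of −2.01 (−2.04 to −1.99), the lowest of all members. ATP5F1A, the alpha subunit, stood at 262, 81.3 and 89.2 CPM, a log2 ratio of −1.69. They were 4.04-fold and 3.22-fold lower in RAC1i. In contrast, ATP5F1B, the catalytic beta subunit that alternates with alpha in the head, stood at 710, 785 and 780 CPM, a log2 ratio of 0.14. ATP5F1C, the gamma subunit, gave 172, 144 and 161 CPM, and ATP5F1E, the epsilon subunit, gave 1497, 1753 and 1845 CPM, with log2 ratios of −0.25 and 0.23.

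The c ring, the rotor in the membrane, is built from a single mature protein that 3 genes encode. ATP5MC1 stood at 317, 142 and 163 CPM, ATP5MC2 at 563, 324 and 334 CPM and ATP5MC3 at 589, 514 and 536 CPM, with log2 ratios of −1.16, −0.80 and −0.20 for RAC1i. The first 2 were lower than DMSO by 1.5-fold, where 36.9% of all genes were, and ATP5MC3 stood at the median of all genes. The sum of the 3 went from 1470 CPM to 979 in RAC1i and 1033 in Combo. ATP5MC3 made up 40.1% of that sum in DMSO, 52.5% in the RAC1i library and 51.9% in Combo, and ATP5MC1 made up 21.6%, 14.5% and 15.8%. Of the peripheral stalk, ATP5PD had a log2 ratio of −0.70 for RAC1i, whereas ATP5PO, ATP5PF and ATP5PB had 0.01, 0.18 and 0.36.

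The small accessory subunits of ATP synthase, which support its dimers in the membrane, had ratios above 0 where they could be tested. Of all genes tested, 57.6% were below 0 for RAC1i and 57.2% for Combo. The 5 that passed the limit had log2 ratios of 0.28 to 0.69 for RAC1i and of 0.42 to 0.75 for Combo, and their sum was 2341 CPM in DMSO, 3423 in RAC1i and 3657 in Combo. ATP5MD stood at 881, 1423 and 1434 CPM, ATP5MG at 423, 646 and 710 CPM and ATP5ME at 286, 426 and 477 CPM, with log2 ratios of 0.69, 0.61 and 0.58. For RAC1i only ATP5MD and ATP5MG were past 1.5-fold, where 22.7% of all genes were higher. Both came under 1.5-fold in some setting, for RAC1i and for Combo. ATP5MGL, an intronless copy of ATP5MG, stayed under 1 CPM and could be confused with it.

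The partners of these proteins that come from mitochondrial DNA were much lower after treatment. All 13 mitochondrial subunit genes were at least 1.5-fold lower in RAC1i and in Combo, where 36.9% and 35.4% of all genes were. Their medians were −1.68 and −1.58, and their sum went from 61495 CPM in DMSO to 18053 with RAC1i and 16941 with Combo. For complex IV the mitochondrial sum was 5.00 times the nuclear sum in DMSO, 1.18 times in RAC1i and 0.982 times in Combo. For complex I this ratio was 1.30, 0.396 and 0.370, for complex III it was 1.35, 0.361 and 0.307, and for complex V it was 0.940, 0.208 and 0.190. The nuclear sums changed little beside this. For RAC1i over DMSO they had ratios of 1.01 for complex I, 1.11 for complex III, 1.28 for complex IV and 1.06 for complex V, and of 0.962, 1.06, 1.22 and 1.01 with a total free of mitochondrial genes, so that the direction of nuclear complex I depended on the scaling. The median cell had 5.60% of its UMIs on mitochondrial genes in DMSO, 1.66% with RAC1i and 1.58% with Combo. Within cells of 1% to 4% mitochondrial UMIs, the core of complex I was still lower, as given above.

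**Figure D3:**
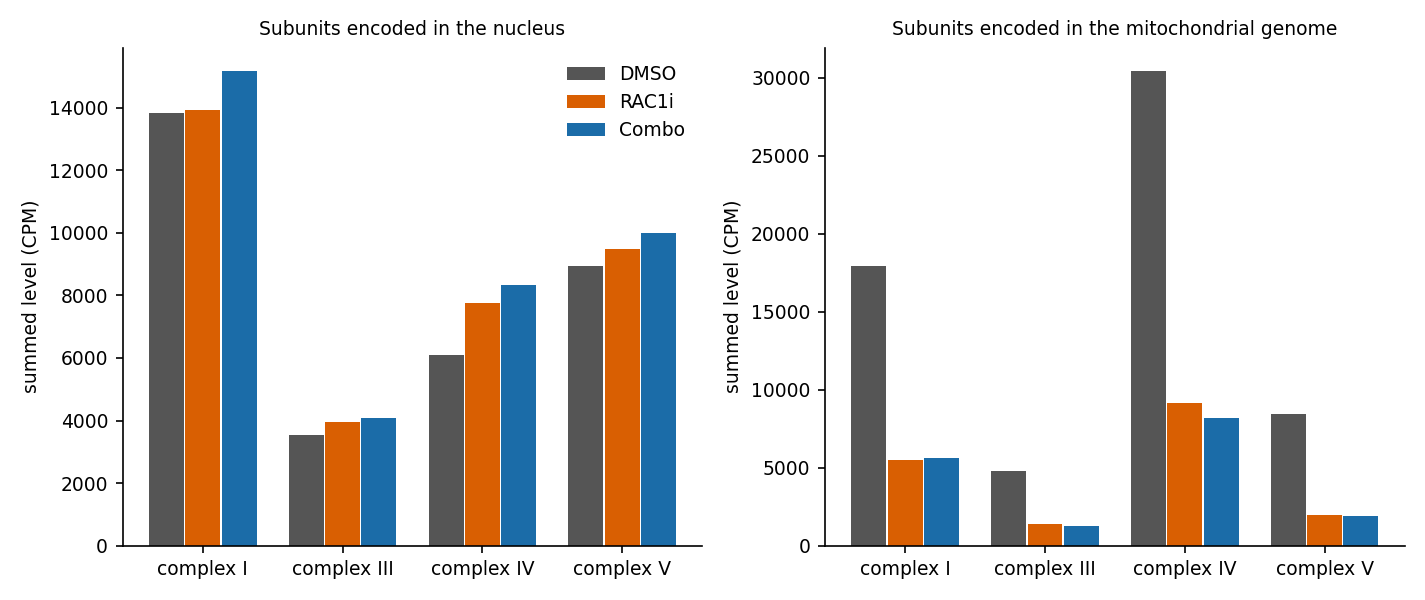
Summed CPM of the nuclear (left) and mitochondrial (right) subunit genes of complexes I, III, IV and V in each library, as bars from 0 with separate vertical scales. On this scale nuclear sums are level or higher after treatment, up to 8324 CPM against 6082 for complex IV, and the mitochondrial sums are 3.19 to 4.43 times lower than in DMSO.

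The total of the members depended on the depth of the cell, and in opposite ways. In DMSO the members' share of UMIs was 4.46% in kept cells with under 5000 UMIs, 4.43% from 5000 to 10000, 3.59% from 10000 to 20000, 3.33% from 20000 to 30000 and 3.14% from 30000 on. In RAC1i it was 2.64%, 3.40%, 3.51%, 3.57% and 3.59% over the same bins. In Combo it was 2.55%, 3.44%, 3.75%, 3.82% and 3.85%. Shallow DMSO cells were thus rich in these transcripts and shallow treated cells poor in them, and Combo passed DMSO from 10000 UMIs on and RAC1i passed it from 20000 on. Over the same bins the mitochondrial share was 2.24%, 2.95%, 7.55%, 7.22% and 5.85% in DMSO, with its peak in the middle, and it ran down from 6.98% to 1.49% in RAC1i. The part of cell quality in these trends was not tested. The median cell had 3.35% of its UMIs on members in DMSO, 3.48% in RAC1i and 3.73% in Combo.

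**Figure D4:**
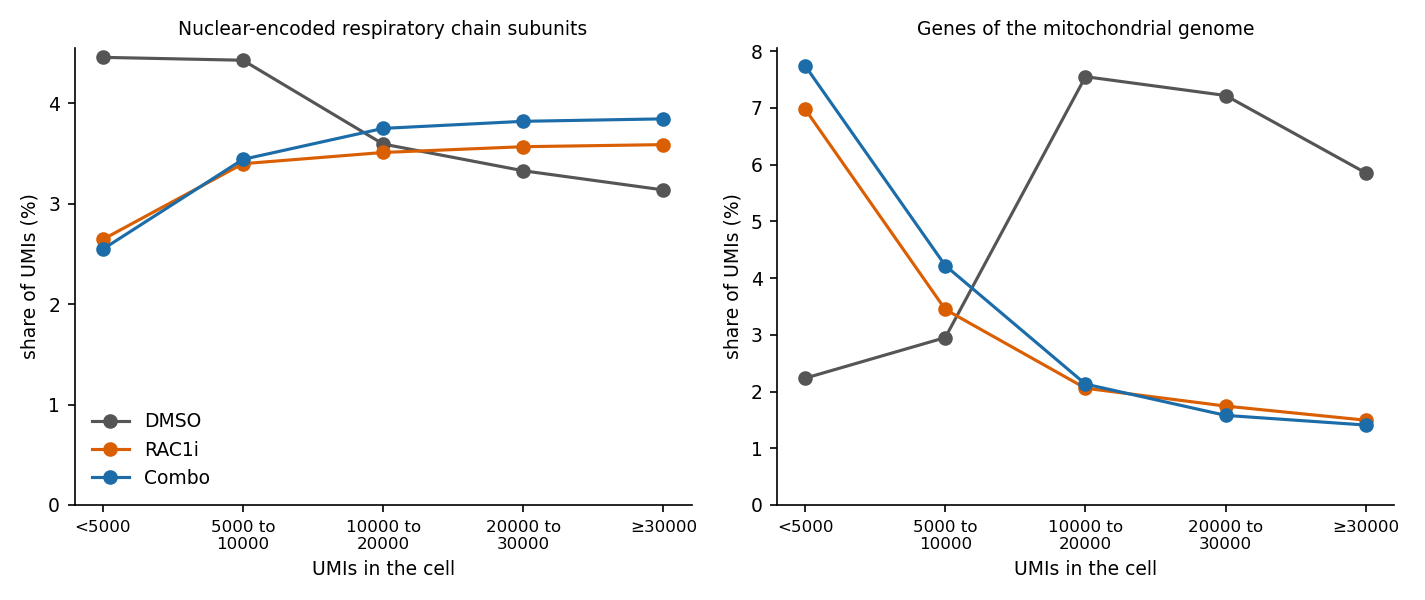
Share of UMIs on the 83 nuclear respiratory chain genes (left) and on genes of the mitochondrial genome (right), in percent, in kept cells binned by their UMI number, with a line per library. On the left DMSO runs down from 4.46% to 3.14% and RAC1i up from 2.64% to 3.59%, and on the right DMSO peaks at 7.55% in the middle bin while RAC1i runs down from 6.98% to 1.49%.

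Lower members tended to have the longer coding sequences, which is a feature the choice of members did not use. Across the 78 members, the log2 ratio for RAC1i had a Spearman rho of −0.51 with the coding length, against −0.04 across 8447 genes, and of −0.32 among the 51 accessory members alone. With the length of the whole mRNA the rho was weaker, at −0.28 for the members and −0.18 for the accessory ones, and with the number of exons it was −0.38 and −0.12. These correlations are across genes of the same libraries and describe them only. Members with a coding length of at least 600 bases (21 genes) had a median of −0.47 with 2 higher (9.52%) and 10 lower (47.6%), where 22.2% of all genes of that length were higher and 37.7% lower. The 57 shorter members had a median of 0.16 with 10 higher (17.5%) and 8 lower (14.0%), where 23.0% of all such genes were higher and 31.0% lower. The medians of all genes were −0.23 and −0.08. Core subunits of complex I have coding lengths of 630 to 2181 bases and its accessory members of 174 to 1419, so role and length overlap. GC content went the same way. The 16 members with at least 55% GC in their mRNA had a median of −0.76, with none higher and 9 lower (56.2%), against a median of −0.50 for all such genes, of which 18.3% were higher and 47.1% lower, and the other 62 members had a median of 0.14, against −0.11. ATP5F1D (69.5% GC), NDUFS7 (66.9%) and NDUFS8 (63.5%) were among the former, but ATP5F1A (45.5%) and NDUFS1 (41.8%) were not.

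**Figure D5:**
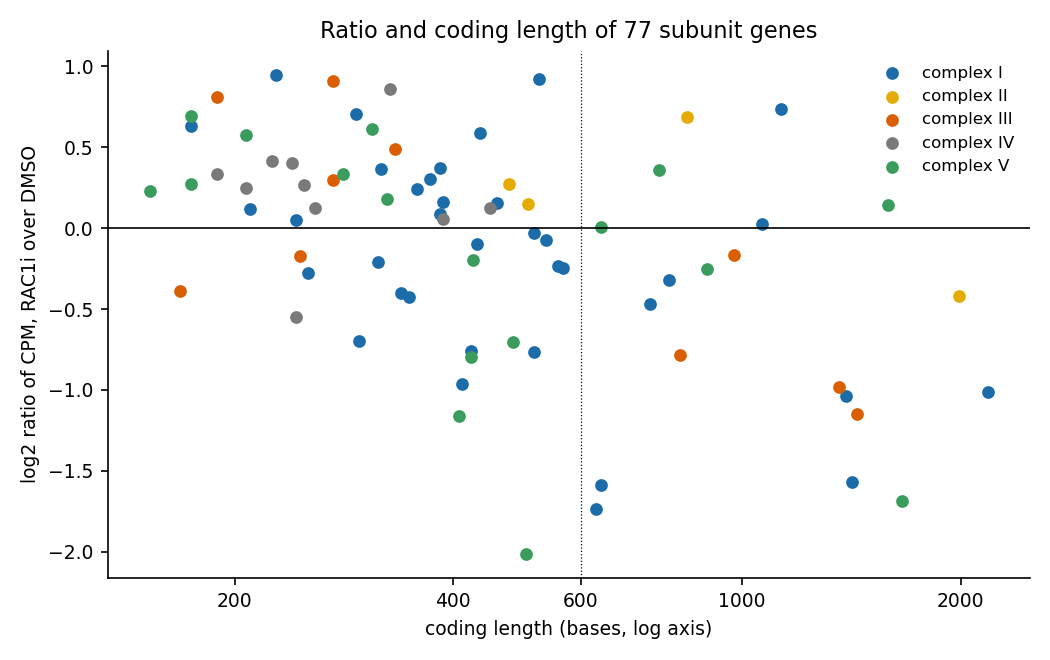
Log2 ratio of CPM for RAC1i over DMSO (vertical axis) against coding length in bases (log axis) for 77 of the members, colored by complex, with a dotted line at 600 bases. Points to the right of the line lie mostly below 0, with SDHB and NDUFA9 as the members there that are higher by 1.5-fold.

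Promoters were searched for the letters bound by the factors known to drive this gene set, in RefSeq windows (GRCh38.p14) of 250 bases before to 50 after each start site. Of the 83 members, 66 had a window. On either strand, the 10-base motif of NRF1 was found in 17 of them (25.8%), CCGGAAG (bound by ETS factors such as GABPA) in 19 (28.8%) and AANATGGCG (YY1) in 16 (24.2%). Of all 35097 promoters in the table these letters were in 5.79%, 10.3% and 3.19%, and of the promoters of all tested genes in 13.7%, 22.4% and 8.45%. The YY1 letters were in members that fell and in members that rose. Of the 16 tested members with them, 8 were below 0 for RAC1i, their median was −0.07, and they ranged from −1.74 for NDUFS8 to 0.92 for NDUFS4. The 4 windows that follow show this, with NDUFS8 and NDUFS7, which fell, and NDUFS4 and COX6A1, which rose. They were chosen after their values were seen. Capitals mark AANATGGCG and, in COX6A1, also CCGGAAG on the opposite strand (CTTCCGG as printed).
NDUFS8, chr11:68030431-68030730, plus strand: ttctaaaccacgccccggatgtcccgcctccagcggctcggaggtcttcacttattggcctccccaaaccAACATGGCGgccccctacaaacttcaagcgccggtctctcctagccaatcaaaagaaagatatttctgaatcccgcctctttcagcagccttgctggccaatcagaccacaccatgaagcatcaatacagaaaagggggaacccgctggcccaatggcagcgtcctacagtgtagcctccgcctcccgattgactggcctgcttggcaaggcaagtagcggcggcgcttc
NDUFS7, chr19:1383657-1383956, plus strand: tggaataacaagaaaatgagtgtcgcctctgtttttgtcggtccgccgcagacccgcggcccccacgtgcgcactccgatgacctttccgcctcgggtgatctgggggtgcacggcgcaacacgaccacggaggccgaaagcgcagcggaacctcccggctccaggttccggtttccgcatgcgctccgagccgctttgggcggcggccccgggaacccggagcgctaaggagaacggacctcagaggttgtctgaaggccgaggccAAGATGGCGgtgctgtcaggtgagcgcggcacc
NDUFS4, chr5:53560389-53560688, plus strand: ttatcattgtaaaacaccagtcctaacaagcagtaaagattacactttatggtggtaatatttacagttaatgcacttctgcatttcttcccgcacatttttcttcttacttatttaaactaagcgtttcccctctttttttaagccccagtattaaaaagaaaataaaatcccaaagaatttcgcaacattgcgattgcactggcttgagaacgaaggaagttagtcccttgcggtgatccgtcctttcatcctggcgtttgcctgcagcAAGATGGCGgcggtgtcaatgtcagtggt
COX6A1, chr12:120437863-120438162, plus strand: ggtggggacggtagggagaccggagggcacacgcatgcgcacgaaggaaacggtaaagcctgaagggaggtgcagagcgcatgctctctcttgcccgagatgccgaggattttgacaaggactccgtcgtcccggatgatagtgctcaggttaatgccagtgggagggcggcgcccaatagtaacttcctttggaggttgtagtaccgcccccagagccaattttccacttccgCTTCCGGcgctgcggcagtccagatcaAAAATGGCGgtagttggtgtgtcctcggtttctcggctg
In NDUFS7, NDUFS4 and COX6A1 the YY1 letters lie near the 3′ end of the window, past the start site, and in NDUFS8 they lie far upstream of it. The letters include ATG, and whether those past the start site overlap the start of a coding sequence was not tested.

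A list of known regulators of respiratory chain genes, nuclear or mitochondrial, was kept apart from the members, and most that passed the limit were higher. Of 10, 8 passed the limit, and 6 of these were higher in RAC1i than in DMSO by at least 1.5-fold (22.7% of all genes), with none lower (36.9%). TFB2M, a mitochondrial transcription factor, stood at 26.2, 84.5 and 71.2 CPM, a log2 ratio of 1.69 for RAC1i. The other 5 were GABPB1, PPRC1, GABPA, YY1 and TFAM, which like TFB2M acts on mitochondrial DNA. PPARGC1B, a coactivator of mitochondrial genes, had the lowest ratio, at 13.9, 9.81 and 8.69 CPM and a log2 ratio of −0.50. In Combo the counts were 6 higher (21.3% of all genes) and 1 lower (35.4%), with PPARGC1B at a log2 ratio of −0.68 as the lower one.

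Other genes of the pathway are read against the 22.7% of all genes that were higher and the 36.9% that were lower in RAC1i. Of 50 assembly factors that passed, 13 were higher and 15 lower, shares close to those of all genes, with a median of −0.07, from ACAD9 of complex I assembly at −2.35 to SDHAF2 of complex II assembly at 1.82. Of 8 subunits and partners whose symbols are not of the members' form, 2 were higher and 1 lower, from HIGD2A at −0.64 to CYCS, cytochrome c, at 1.11. Of 18 enzymes of the citric acid cycle and pyruvate dehydrogenase, 3 were higher and 9 lower, with a median of −0.58, from IDH2 at −3.08 to DLST at 1.52. Of 8 carriers and channels of the mitochondrial membranes, 1 was higher and 5 lower, from SLC25A4 (a form of the ADP/ATP carrier) at −1.71 to VDAC2 at 0.63. Of 77 mitochondrial ribosomal proteins, 23 were higher and 11 lower, with a median of 0.20, from MRPL12 at −2.34 to MRPL32 at 1.56. Proliferation genes differed as well, with 11 of 20 lower in RAC1i and 1 higher, from MCM5 at −1.82 to BIRC5 at 0.79. Few cells had no proliferation UMI among 5000 UMIs drawn from each, 269 with DMSO, 139 with RAC1i and 130 with Combo. In the full counts of these cells the members' median for RAC1i was 0.07.

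Adding the EZH2 inhibitor to RAC1i changed the members little. Between Combo and RAC1i no member was higher or lower by 1.5-fold, where 0.175% of all genes were higher and 0.484% lower, and the ratios ran from −0.40 to 0.35. Most were slightly above RAC1i. Their median log2 ratio was 0.12, against 0.01 for all genes, and 6 of 78 were below 0, where 47.7% of all genes were. This was not particular to the members. Medians were 0.15 for the citric acid cycle, 0.10 for carriers and 0.09 each for assembly factors and mitochondrial ribosomal proteins. The regulators (−0.17) and mitochondrial subunit genes (−0.04) lay below 0. All genes with a coding length under 600 bases had a median of 0.07, with 412 of 1202 below 0. Past a log2 ratio of 0.32 in either direction, 3 members were higher (4.66% of all genes) and 1 lower (5.08%). NDUFA6 and NDUFA3 were among the 3. NDUFA6, an accessory subunit of complex I, had the highest ratio, with 145 CPM in DMSO, 188 in RAC1i and 239 in Combo. NDUFA3, also accessory, stood at 229, 189 and 240 CPM, so that Combo was back at the DMSO level. UQCRHL had the lowest ratio, with the limit given above. Of the 6 core genes of complex I described above, 5 were above RAC1i, with a median of 0.16. Against DMSO in Combo, 4 of the 6 were still lower by 1.5-fold, where 35.4% of all genes were, and NDUFV2 and NDUFS3 had log2 ratios of −0.32 and −0.19. Against DMSO, the ends of the range in Combo were the same genes, ATP5F1D at −1.96, and NDUFC1 at 1.10. The comparisons of RAC1i and of Combo with DMSO share the DMSO library, so that a property of that library enters both.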

How the data were processed

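The authors made the deposited counts, UMIs for each gene and barcode, with Cell Ranger 4.0.0 on GRCh38 from a 3′ kit and did not normalize them. Following the limits in the methods, cells needed more than 1000 genes, no more than 20% mitochondrial UMIs and a complexity (log10 genes over log10 UMIs) above 0.8. No doublets were removed. UMIs were summed over kept cells and scaled to CPM by the UMI total. Reads of near-identical genes cannot be told apart, and levels are not divided by transcript length. Intervals are exact Poisson, conditional or Clopper-Pearson intervals. Coordinates, coding lengths and GC content are from GENCODE 44.

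The members and lists were chosen with earlier results of these data known. The values of 1 member are not reported here, although it is counted among the members. The text names, per complex, the 3 largest rises and falls in RAC1i over DMSO among the members reported, the role and isoform sets, and each list's ends. NDUFC2, NDUFA3, NDUFV3 and the other genes listed to complete a count were named after their values were seen.

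Alternatives were TMM (edgeR 4.0.16), size factors (DESeq2 1.42.0), a total without mitochondrial genes, cell-averaged CPM, other limits on cells, depth, proliferation and mitochondrial share, a pseudocount of 1 CPM and other CPM minimums. Proliferation UMIs were counted among 5000 UMIs drawn at random from each cell with at least 5000. The full counts of the cells chosen by them were then summed. The calculations used Python 3.11.15 and were tested on simulated data.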

Additional observations from a re-analysis of the deposited data

How the results depend on the processing

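With 1 library per condition, no library could be left out, and no value here carries an error between cultures. No paired analysis was possible because each condition had a single library. No member past 1.5-fold against DMSO, 30 for RAC1i and 28 for Combo, changed direction under any of 14 settings, although 9 and 12 of them came under 1.5-fold in some setting. Of these settings, only those that changed the cells or their weights could have turned such a member. Of the 48 and 50 other members tested, 17 and 18 changed direction in some setting. The members' median log2 ratio, in contrast, lies near 0 and moved with the setting. It ranged from −0.14 to 0.17 for RAC1i and from −0.0593 to 0.31 for Combo, and these moves were not traced to a cause.

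For RAC1i over DMSO, with 0.05 as reported, the median was 0.13 with TMM, 0.17 with size factors, −0.0127 with a total free of mitochondrial genes, −0.14 as a mean over cells, 0.0791 over every barcode, −0.0330 with cells thinned to 5000 UMIs, −0.00207 in cells of 10000 to 30000 UMIs, 0.0740 in cells without and 0.0734 in cells with at least 3 proliferation UMIs, and −0.0661 in cells with 1% to 4% mitochondrial UMIs. For Combo over DMSO, with 0.19 as reported, it was 0.28, 0.31, 0.12, −0.0593, 0.22, 0.0677 and 0.11 under the first 7 of these, 0.21 in cells with at least 3 proliferation UMIs, 0.0618 in cells with 1% to 4% mitochondrial UMIs, 0.21 without a CPM minimum and 0.17 with a minimum of 50 CPM. For Combo over RAC1i, with 0.12 as reported, it was 0.10 as a mean over cells, 0.10 in cells of 10000 to 30000 UMIs, 0.15 in cells without proliferation UMIs and 0.15 in cells with 1% to 4% mitochondrial UMIs.

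Counts of called members also moved with the setting, from 12 higher and 18 lower for RAC1i as reported. Past a log2 ratio of 0.32, not 0.58, 21 were higher and 24 lower, where 2716 and 4010 of 8777 genes were. As a mean over cells, 5 were higher and 22 lower, where 2160 and 3103 of 8757 genes were. In cells with 1% to 4% mitochondrial UMIs, 7 were higher and 19 lower, where 2030 and 3031 of 8687 genes were. For Combo over DMSO, 13 were higher and 15 lower as reported. Past 0.32, 27 were higher and 21 lower, where 2645 and 3914 of 8745 genes were. As a mean over cells, 7 were higher and 19 lower, where 2062 and 2980 of 8762 genes were. For Combo over RAC1i, with 0 as reported, 3 were higher and 1 lower past 0.32, where 4.66% and 5.08% of all genes were. In cells without proliferation UMIs, 1 was higher and 0 lower, where 650 and 329 of 7453 genes were.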
